A study of Homo sapiens with 24 samples.

Results

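The BMP receptor, ligand and ID genes comprised ID1, ID2, ID3, BMPR2, BMPR1A, BMP4, SMAD5, SMAD6, NOG and BMPER, 10 genes chosen by symbol with earlier results of these data known. Of 47309 probes on the array, 15 carried one of these symbols in the probe annotation. Testing required detection (p under 0.05) on both arrays of 1 or more groups, which 10 of these probes and 22803 of the whole array met, and the 10 covered 8 of the 10 genes. ID2 had no probe that passed, and BMPR1A was not analysed here because the annotation used pairs no probe with it. On GRCh38.p14 the measured genes lie at chr20:31605289-31606510 (ID1), chr1:23557926-23559501 (ID3), chr2:202376327-202567749 (BMPR2), chr14:53949736-53956891 (BMP4), chr5:136132845-136182733 (SMAD5), chr15:66702236-66782849 (SMAD6), chr17:56593699-56595611 (NOG) and chr7:33904915-34156427 (BMPER) (RefSeq).

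MDA-MB-231, a human triple-negative breast cancer cell line, was forward transfected at 50 nM, and RNA was taken 48 hours later for Illumina HT12v4 bead arrays. There were 24 arrays in 12 groups of 2: a mimic each of miR-655-3p, miR-127-5p, miR-544a, miR-410, miR-369-3p and miR-135a, an inhibitor each of the same microRNAs other than miR-127-5p, and a non-targeting (NT) control mimic. A mimic is a synthetic duplex that works like the microRNA itself, and an inhibitor is an oligonucleotide that blocks it. No non-targeting inhibitor was among the groups, so inhibitors and mimics share the NT control mimic, which carried a fluorescent dye according to the methods. The labels do not tell whether duplicate arrays had cultures of their own, so p-values measure the spread between these arrays, which may be technical. Levels are normalized signals, 2 to the power of the normalized log2 intensity, and they compare groups for 1 probe, not probes with each other.

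Bone morphogenetic proteins (BMPs) are secreted ligands that bring type I and type II receptors together, after which the type II receptor activates the type I receptor, a kinase for SMAD1, SMAD5 and SMAD9. Those SMADs enter the nucleus with SMAD4 and induce the ID genes, whose products bind E proteins and keep them off DNA, and SMAD6, which feeds back to inhibit the pathway. Noggin and BMPER bind BMPs outside the cell. In breast cancer cells ID1 and ID3 are known for roles in metastatic colonization, the phenotype the study addressed.

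The mature sequences that define the mimics are printed below because the groups differ in these molecules, with the seed (bases 2 to 8) in capitals, 5′ to 3′, from RefSeq on GRCh38.p14. Those at chromosome 14 lie at chr14:100883001-100883022 (miR-127-5p), chr14:101065641-101065661 (miR-369-3p), chr14:101048712-101048733 (miR-544a) and chr14:101049610-101049631 (miR-655-3p), on the plus strand. The labels name no arm for miR-410 (3p at chr14:101065961-101065981, 5p at chr14:101065925-101065945, plus strand) or miR-135a (MIR135A1 on the minus strand, 5p at chr3:52294270-52294292, 3p at chr3:52294232-52294253), so both arms are shown. No 2 of these sequences had the same seed, but a run of 13 bases is common to miR-655-3p and miR-369-3p. It begins at base 2 of miR-369-3p and base 1 of miR-655-3p, and the 2 seeds are offset by 1 base.
miR-127-5p: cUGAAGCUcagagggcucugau
miR-369-3p: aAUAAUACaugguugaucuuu
miR-544a: aUUCUGCAuuuuuagcaaguuc
miR-655-3p: aUAAUACAugguuaaccucuuu
miR-410-3p: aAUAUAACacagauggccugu
miR-410-5p: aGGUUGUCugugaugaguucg
miR-135a-5p: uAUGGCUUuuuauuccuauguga
miR-135a-3p: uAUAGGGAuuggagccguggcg

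Measured against the NT control, the 10 probes were mostly lower. A probe was called at a Benjamini-Hochberg adjusted p under 0.05 over all tested probes (limma, 1 model of 12 group means) with a fold of at least 1.4. Of 110 comparisons of a probe with the NT control (11 groups), 45 were called lower and 3 higher. Because the genes were listed with such results known, these counts describe the probes and support nothing further. Where arrays of a group are said to lie all above or below the NT arrays, this only describes the levels. With 2 arrays per group it also held for comparisons not called, such as BMP4 with the miR-127-5p mimic (log2 fold change -0.57). The share of all tested probes that separate in this way was not counted. With the miR-127-5p mimic 4 of 10 probes were lower and 2 higher, where 8.02% and 7.75% of all tested probes were called lower and higher. The miR-135a mimic had 6 lower and 0 higher (8.27% and 8.14% of all probes), miR-369-3p 4 and 1 (2.76% and 2.31%), miR-410 5 and 0 (4.10% and 3.46%), miR-544a 8 and 0 (9.80% and 11.2%) and miR-655-3p 5 and 0 (5.90% and 5.51%). The median log2 fold change of the 10 probes lay between -0.87 (miR-544a) and -0.30 (miR-369-3p) with the mimics, against medians over all probes between -0.0035 and 0.019.

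The inhibitor groups were also lower than the NT control for several of these genes. The miR-135a inhibitor had 5 probes called lower, the miR-369-3p inhibitor 4 and the miR-410 inhibitor 4, while the miR-544a and miR-655-3p inhibitors had 0. None was called higher, and 11.6%, 12.3%, 9.31%, 3.77% and 3.22% of all tested probes were called in either direction in these comparisons, in that order of the inhibitors. All 11 comparisons share the same pair of NT arrays, so the mimics were also set against the mean of the 5 inhibitor groups, which leaves the NT arrays out. Inhibitors are treatments and not controls, so these values only stand beside those against the NT control. Their p-values measure the spread between arrays of a group, not the differences among the 5 inhibitor groups. Each mimic was also set against the mean of the other 5 mimics, with the same limit on its p-values.

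**Figure D1:**
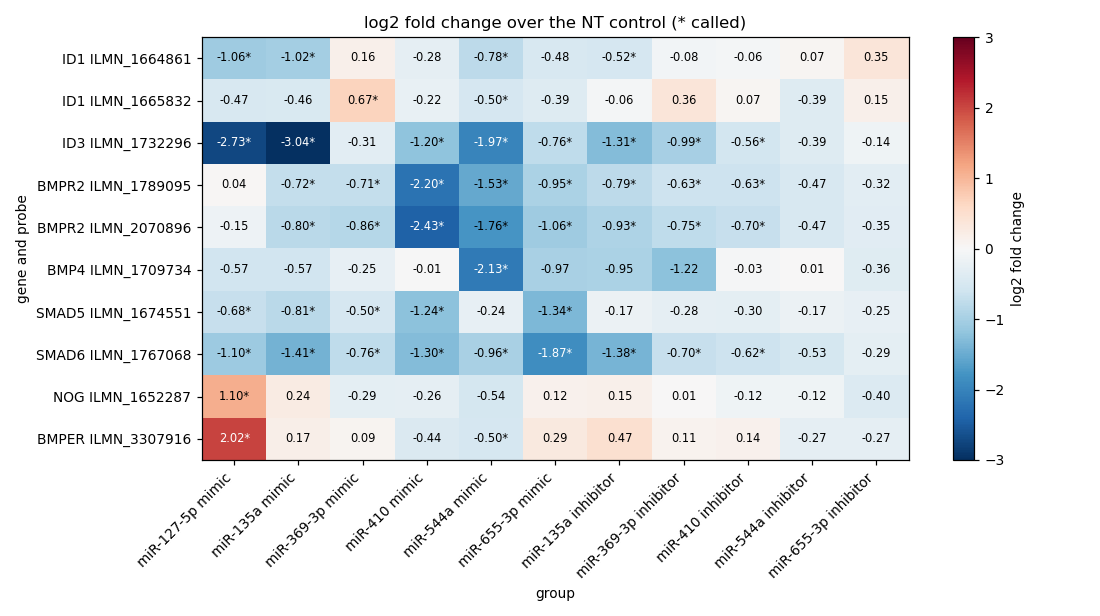
Log2 fold change over the NT control for each of the 10 tested probes (rows) in the 6 mimic and 5 inhibitor groups (columns), with blue lower and red higher than the NT control and an asterisk on called probes. The darkest blue cells are ID3 with the miR-135a mimic (-3.04) and the miR-127-5p mimic (-2.73), and the darkest red cell is BMPER with the miR-127-5p mimic (2.02).

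ID3 had the widest range of group means of the 10 probes as processed here (3.04 on the log2 scale). It encodes an inhibitor of DNA binding that pairs with E proteins and is a direct target of BMP signals. Its level was 74.8 and 74.5 on the miR-127-5p mimic arrays, 63.8 and 56.7 for miR-135a, 380.3 and 422.9 for miR-369-3p, 228 and 205 for miR-410, 120.0 and 133 for miR-544a, and 290.1 and 297 for miR-655-3p, against 519 and 474 in the NT control. All 12 mimic arrays were below both NT arrays, and the miR-127-5p and miR-135a arrays were the 4 lowest of the series. The fold was 6.64 lower with miR-127-5p (log2 fold change -2.73, standard error 0.12, adjusted p = 2.83e-10), 8.24 lower with miR-135a (-3.04), 3.93 lower with miR-544a (-1.97), 2.29 lower with miR-410 (-1.20) and 1.69 lower with miR-655-3p (-0.76). Without background correction the folds of ID3 were smaller, at 3.31 for miR-127-5p, 3.60 for miR-135a and 2.58 for miR-544a, and all 3 were still called. Arrays of bulk RNA cannot tell fewer expressing cells from less RNA per cell. With miR-369-3p ID3 was not called (log2 fold change -0.31, 95% interval -0.55 to -0.06).

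The inhibitor arrays of ID3 were all above those of the miR-127-5p, miR-135a and miR-544a mimics and below the higher NT array. They read 211 and 190.2 for miR-135a, 252 and 246 for miR-369-3p, 320.4 and 355 for miR-410, 347 and 411 for miR-544a, and 428 and 475 for miR-655-3p. ID3 was called lower than the NT control with the miR-135a inhibitor (log2 fold change -1.31), the miR-369-3p inhibitor (-0.99) and the miR-410 inhibitor (-0.56). The last of these was lost without NT control replicate 1 (-0.49, adjusted p = 0.0629) or without miR-410 inhibitor replicate 1 (-0.48, adjusted p = 0.0509). Set against the mean of the inhibitor groups, ID3 was still lower with miR-127-5p (log2 fold change -2.05, standard error 0.09, adjusted p = 1.5e-10), miR-135a (-2.36), miR-544a (-1.30) and miR-410 (-0.52). The miR-410 difference was at -0.44 without its replicate 2, under the 1.4-fold threshold. With miR-655-3p the difference from the inhibitors was -0.08 (95% interval -0.27 to 0.11) and was not called.

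ID1, the other detected ID gene, has 2 tested probes that differ in brightness. The brighter, ILMN_1664861, read 569 and 562 for the miR-127-5p mimic, 594 and 565 for miR-135a, 634 and 745 for miR-544a, 887 and 806 for miR-655-3p, 1008 and 934 for miR-410, and 1288 and 1353 for miR-369-3p, against 1139 and 1219 in the NT control. The miR-369-3p arrays were above the NT arrays, and the other mimic arrays were below them. ID1 was 2.08-fold lower with miR-127-5p (log2 fold change -1.06, standard error 0.10, adjusted p = 2.09e-06), 2.03-fold lower with miR-135a (-1.02) and 1.71-fold lower with miR-544a (-0.78). The miR-544a call of this probe was lost with SAM, the method of the study, run on the values normalized here. With miR-655-3p the log2 fold change of -0.48 (adjusted p = 0.00427) was just under the 1.4-fold threshold, and miR-410 (-0.28) and miR-369-3p (0.16) were not called. Against the mean of the inhibitors the same 3 mimics were called, with log2 fold changes of -1.01, -0.98 and -0.73 for miR-127-5p, miR-135a and miR-544a.

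On the inhibitor arrays the bright ID1 probe ran from 801 to 1557 with a median of 1159. Only the miR-135a inhibitor was called, at 849 and 801 (log2 fold change -0.52), and this call was lost without NT control replicate 2 (-0.47) or miR-135a inhibitor replicate 2 (-0.47), where the fold fell under 1.4. The miR-655-3p inhibitor had the highest ID1 arrays of the series, 1456 and 1557, and was not called (0.35, adjusted p = 0.0714).

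The dim ID1 probe, ILMN_1665832, was detected on 20 arrays and ran from 23.7 to 60.0. It read 60.0 and 59.4 for the miR-369-3p mimic, against 38.6 and 36.3 in the NT control, and was called higher (log2 fold change 0.67, standard error 0.18, adjusted p = 0.0334). That call was lost when either array of either group was left out (log2 fold changes 0.63 to 0.72, adjusted p 0.129 to 0.199). With miR-544a it read 28.4 and 24.8 and was called lower (-0.50, adjusted p = 0.0495), a call lost without any one of 15 single arrays (adjusted p 0.0514 to 0.256). The arrays of the miR-127-5p mimic read 23.7 and 30.6, those of miR-135a 25.5 and 28.9, those of miR-410 29.8 and 34.7 and those of miR-655-3p 27.4 and 29.6. These ID1 values were all below both NT arrays and none was called. Both probes thus placed miR-369-3p highest among the mimics, and only the bright probe separated miR-127-5p and miR-135a from the NT control at the threshold.

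**Figure D2:**
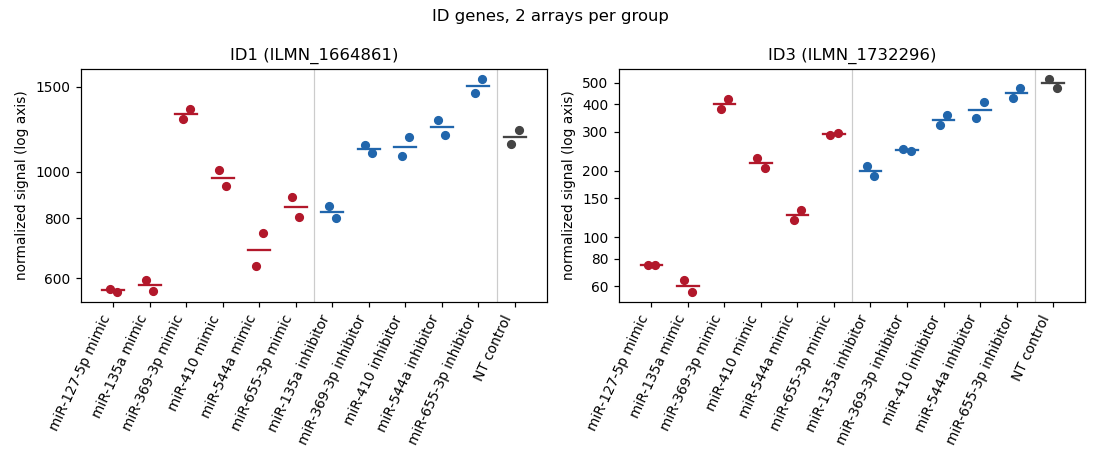
Normalized signal (log axis) of ID1 and ID3 on each array, with mimics in red, inhibitors in blue and the NT control in grey, 2 arrays per group as points and the mean of log2 values as a bar. For ID3 the miR-127-5p and miR-135a mimic arrays lie between 56.7 and 74.8, against 474 and 519 in the NT control.

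ID2 had 2 probes that did not pass: ILMN_1793990 was detected on 3 arrays and ILMN_2086095 on 0 arrays. The raw signal of ILMN_1793990 ran from 96.3 to 130.3 over the 24 arrays, close to the median signal per array of 101.7 to 123.1, so a change in ID2 was not measurable here.

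Of 5752 probes of other genes with a range of at least 1 on the log2 scale, that of ID3 was the most like the bright ID1 probe over the 12 group means (Pearson correlation 0.937, given as a description, since all arrays share 1 normalization). The next were CDCA7 (0.933) and STAU2 (0.887). For ID3 they were ID1, ADAR (0.90) and TAF9B (0.889). The promoters of both are shown because they moved together, with that of SMAD6, a further BMP target. The letters are the 250 bases before the RefSeq start site, 5′ to 3′ on the gene's strand: ID1 at chr20:31605039-31605288 (plus), ID3 at chr1:23559502-23559751 (minus) and SMAD6 at chr15:66701986-66702235 (plus), GRCh38.p14. Capitals mark matches on either strand of GGAGCC or GGCGCC, GC-rich letters bound by BMP SMADs, and of GTCTAGAC, the palindrome of the SMAD box.
ID1 promoter: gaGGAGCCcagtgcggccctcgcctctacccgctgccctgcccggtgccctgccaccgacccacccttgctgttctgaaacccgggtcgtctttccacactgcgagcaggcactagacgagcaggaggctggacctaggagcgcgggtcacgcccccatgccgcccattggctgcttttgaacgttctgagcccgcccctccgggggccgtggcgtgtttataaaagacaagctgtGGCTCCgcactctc
ID3 promoter: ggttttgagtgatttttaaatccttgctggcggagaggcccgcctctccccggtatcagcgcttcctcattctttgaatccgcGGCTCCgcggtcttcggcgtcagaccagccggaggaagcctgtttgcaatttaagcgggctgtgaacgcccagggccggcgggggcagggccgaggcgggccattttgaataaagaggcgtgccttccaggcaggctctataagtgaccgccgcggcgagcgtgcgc
SMAD6 promoter: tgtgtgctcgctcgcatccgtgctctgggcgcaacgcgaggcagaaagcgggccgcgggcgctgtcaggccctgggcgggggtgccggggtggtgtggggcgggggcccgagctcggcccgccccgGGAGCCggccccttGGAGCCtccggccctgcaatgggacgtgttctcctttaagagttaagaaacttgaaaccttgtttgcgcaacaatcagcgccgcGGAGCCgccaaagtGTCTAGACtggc
ID1 held GGAGCC 2 times, ID3 held it 1 time and SMAD6 held it 3 times, and 30.6% of 35116 promoter windows of the same length held it at least once. SMAD6 alone of the 3 held GTCTAGAC, which was in 0.182% of windows and ended 4 bases before the start, and none of the 3 held GGCGCC (16.4% of windows). In at least 1 window each, SMAD5, BMPR2, BMPER and BMP4 also held GGAGCC, and BMPR2, BMPER and BMP4 held GGCGCC. The windows of ID2 and BMPR1A held none of these letters. A match is a description of these letters.

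BMPR2, the type II BMP receptor, was lower with 5 of the 6 mimics on both of its probes. On the brighter probe, ILMN_2070896, its level was 149 and 177 for the miR-410 mimic, 238 and 279 for miR-544a, 401 and 435 for miR-655-3p, 466 and 540 for miR-135a, 488 and 477 for miR-369-3p, and 764 and 813 for miR-127-5p, against 846 and 903 in the NT control. Every mimic array was below both NT arrays, those of miR-410 farthest. BMPR2 was 5.39-fold lower with miR-410 (log2 fold change -2.43, standard error 0.12, adjusted p = 1.65e-08), 3.39-fold lower with miR-544a (-1.76), 2.09-fold lower with miR-655-3p (-1.06), 1.81-fold lower with miR-369-3p (-0.86) and 1.74-fold lower with miR-135a (-0.80). With miR-127-5p it was not called (-0.15, 95% interval -0.41 to 0.11).

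The other BMPR2 probe, ILMN_1789095, read 116 and 136 for miR-410, 194 and 208 for miR-544a, 266 and 337 for miR-655-3p, 301 and 409 for miR-135a, 331 and 379 for miR-369-3p, and 586 and 602 for miR-127-5p, against 582 and 575 in the NT control. Its log2 fold changes were -2.20, -1.53, -0.95, -0.72, -0.71 and 0.04 in that order, and the first 5 were called. The miR-369-3p call of this BMPR2 probe was lost without NT control replicate 1 (-0.70, adjusted p = 0.0514) or without miR-369-3p mimic replicate 1 (-0.61, adjusted p = 0.0890). Over the 12 group means the 2 probes correlated at 0.996.

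BMPR2 was lower with 3 inhibitors too. On the brighter probe the miR-135a inhibitor arrays read 429 and 492 (log2 fold change -0.93 from the NT control), the miR-369-3p inhibitor arrays 495 and 543 (-0.75) and the miR-410 inhibitor arrays 502 and 579 (-0.70), and all 3 were called on both probes. With median scaling the miR-369-3p and miR-410 inhibitor calls were lost on both BMPR2 probes (adjusted p 0.0511 to 0.174), as were those of the miR-369-3p mimic (adjusted p = 0.125 and 0.298), and the miR-369-3p inhibitor calls were also lost in the fit of only the 2 groups (adjusted p = 0.0563 and 0.0679). The miR-544a inhibitor (647 and 613, -0.47) and the miR-655-3p inhibitor (690.3 and 685, -0.35) were not called. On the other BMPR2 probe the miR-369-3p inhibitor call (-0.63) was lost without NT control replicate 1 (-0.62, adjusted p = 0.0527), and the miR-410 inhibitor call (-0.63) was lost without either NT array or without miR-410 inhibitor replicate 2 (-0.64 to -0.61, adjusted p 0.0510 to 0.0567).

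With the inhibitor groups as reference, BMPR2 stayed lower with miR-410 (log2 fold change -1.79 on the brighter probe, adjusted p = 7.31e-09) and miR-544a (-1.12, adjusted p = 2.12e-07). It was not called with miR-655-3p (-0.43), miR-369-3p (-0.22) or miR-135a (-0.16, 95% interval -0.36 to 0.04). With miR-127-5p BMPR2 was higher than in the inhibitor groups (0.49 on the brighter probe and 0.60 on the other). The brighter BMPR2 probe's call lies at the fold threshold and was lost without miR-127-5p mimic replicate 2, replicate 1 of the miR-135a, miR-369-3p or miR-410 inhibitor or replicate 2 of the miR-544a inhibitor (0.44 to 0.48), while the other probe kept its call without any single array. Against the other 5 mimics, BMPR2 was lower with miR-410 (-1.50) and miR-544a (-0.70) and higher with miR-127-5p (1.23).

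SMAD5, a SMAD that BMP receptors phosphorylate, has 1 tested probe. It read 567 and 488 for the miR-655-3p mimic, 601 and 530.2 for miR-410, 752 and 768 for miR-135a, 833 and 827 for miR-127-5p, 933 and 947 for miR-369-3p, and 1169 and 1083 for miR-544a, against 1325 and 1341 in the NT control. None of these arrays reached the NT arrays, and those of miR-544a came closest. SMAD5 was 2.53-fold lower with miR-655-3p (log2 fold change -1.34, standard error 0.11, adjusted p = 4.76e-07), 2.36-fold lower with miR-410 (-1.24), 1.75-fold lower with miR-135a (-0.81), 1.61-fold lower with miR-127-5p (-0.68) and 1.42-fold lower with miR-369-3p (-0.50). With miR-544a it was not called (-0.24, 95% interval -0.48 to -0.01). The miR-369-3p call of SMAD5 was lost when either array of either group was left out (-0.51 to -0.49, adjusted p 0.0704 to 0.0973).

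No inhibitor was called for SMAD5, whose inhibitor arrays ran from 1037 to 1251 (log2 fold changes -0.30 to -0.17). Against the inhibitor groups SMAD5 was lower with miR-655-3p (-1.11, adjusted p = 1.02e-07), miR-410 (-1.01) and miR-135a (-0.58). With miR-127-5p its difference of -0.45 (adjusted p = 0.000641) was under the fold threshold. SMAD5 was higher with miR-544a than with the other 5 mimics (0.67, adjusted p = 1.21e-05). The other SMAD5 probes, ILMN_1761994 and ILMN_2371984, were detected on 0 and 1 array. ILMN_2371984 lay just outside the detection rule, with a detection p of 0.05065 on the worse array of its best group.

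SMAD6, the inhibitory SMAD, was called lower than the NT control with all 6 mimics. Its level was 46.8 and 45.9 for miR-655-3p, 68.4 and 59.2 for miR-135a, 59.9 and 78.9 for miR-410, 77.8 and 80.2 for miR-127-5p, 75.1 and 100.4 for miR-544a, and 88.4 and 113 for miR-369-3p, against 175 and 163 in the NT control. The fold was 3.65 lower with miR-655-3p (log2 fold change -1.87, standard error 0.18, adjusted p = 2.32e-06), and log2 fold changes were -1.41 with miR-135a, -1.30 with miR-410, -1.10 with miR-127-5p, -0.96 with miR-544a and -0.76 with miR-369-3p. The miR-369-3p call of SMAD6 was lost without either NT array or without miR-369-3p mimic replicate 1 (-0.81 to -0.58, adjusted p 0.0867 to 0.226). Without background correction the SMAD6 differences were smaller (-0.85 with miR-655-3p, -0.69 with miR-135a and -0.65 with miR-410), and the miR-369-3p difference (-0.41) was under the fold threshold. Median scaling also lost the miR-369-3p call of SMAD6 (-0.72, adjusted p = 0.192), and SAM lost its miR-544a call.

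The SMAD6 inhibitor arrays were below both NT arrays as well, from 64.0 to 138. They read 65.5 and 64.0 for miR-135a (log2 fold change -1.38, called), 126 and 86.1 for miR-369-3p (-0.70, called), 115 and 106 for miR-410 (-0.62, called), 114 and 122 for miR-544a (-0.53) and 138 and 138 for miR-655-3p (-0.29). The SMAD6 call with the miR-369-3p inhibitor was lost without either NT array or its own replicate 2 (adjusted p 0.0565 to 0.200), and that with the miR-410 inhibitor without any one of the 4 arrays compared (adjusted p 0.0802 to 0.180). Against the inhibitor groups SMAD6 was lower with miR-655-3p (-1.16, adjusted p = 1.32e-05), miR-135a (-0.71) and miR-410 (-0.59). The miR-410 difference was lost without its replicate 1 (-0.40, adjusted p = 0.273), and without background correction all 3 SMAD6 differences from the inhibitors (-0.47, -0.32 and -0.27) were under the fold threshold. With miR-127-5p (-0.39), miR-544a (-0.26) and miR-369-3p (-0.05, 95% interval -0.35 to 0.24) SMAD6 was not called against the inhibitors. Genes most like SMAD6 over the 12 group means were S100A2 (Pearson correlation 0.879), SOST (0.875) and FZD1 (0.853), and for BMPR2 they were MPRIP (0.891), PNMA2 (0.869) and SKP1 (0.867).

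**Figure D3:**
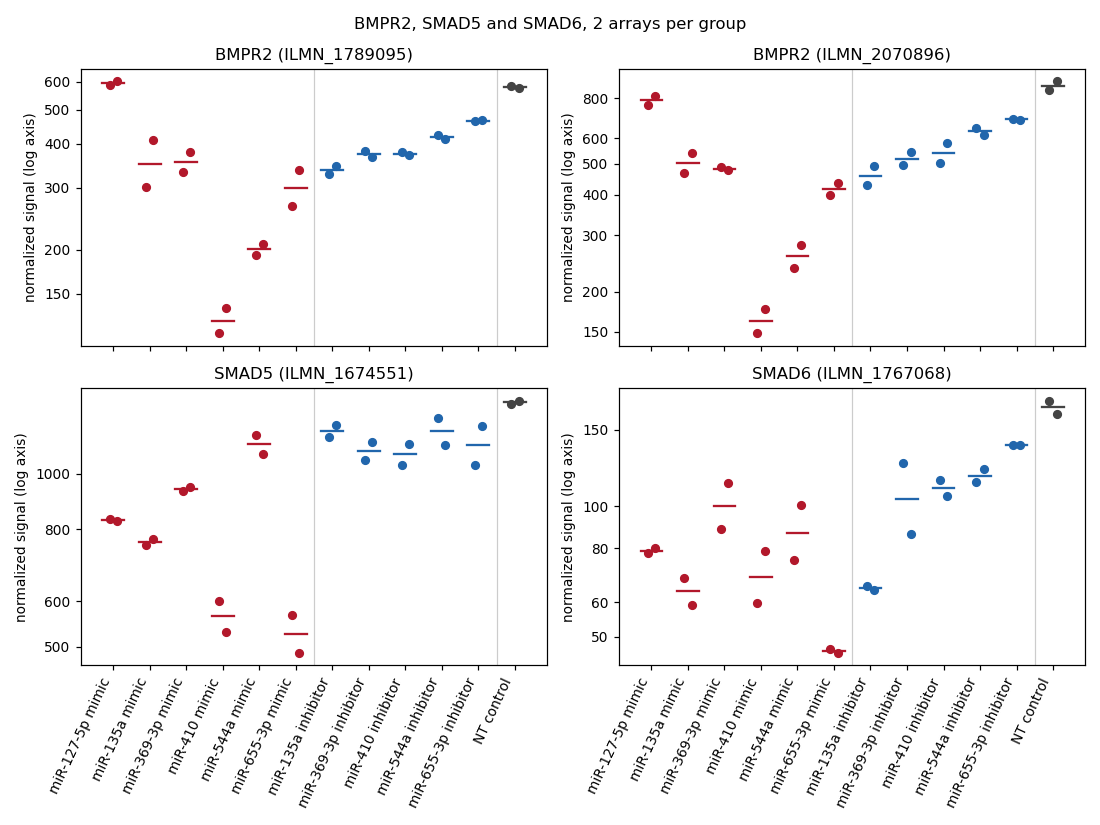
Normalized signal (log axis) of both BMPR2 probes, SMAD5 and SMAD6 on each array, with mimics in red, inhibitors in blue and the NT control in grey, 2 arrays per group as points and the mean of log2 values as a bar. The miR-410 mimic is lowest for BMPR2 (149 and 177 on ILMN_2070896), the miR-655-3p mimic is lowest for SMAD6 (46.8 and 45.9), and the NT arrays are highest for SMAD5 and SMAD6.

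The BMP antagonists NOG and BMPER were higher with the miR-127-5p mimic. NOG, which encodes noggin, a secreted protein that sequesters BMPs, read 268 and 190.3 for miR-127-5p, 134 and 115 for miR-135a, 86.5 and 85.8 for miR-369-3p, 102 and 76.2 for miR-410, 89.1 and 59.3 for miR-544a, and 108 and 121 for miR-655-3p, against 107 and 103 in the NT control. NOG was 2.14-fold higher with miR-127-5p (log2 fold change 1.10, standard error 0.21, adjusted p = 0.00108) and was not called with the other 5 mimics or any inhibitor (inhibitor arrays 68.5 to 119.9). It was also higher with miR-127-5p than in the inhibitor groups (1.19, adjusted p = 2.53e-05) and than with the other mimics (1.24). With miR-544a NOG was lower than with the other mimics (-0.72), a call lost without miR-544a mimic replicate 2 (-0.42, adjusted p = 0.133).

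BMPER, a secreted BMP-binding protein that can inhibit or promote BMP signals, was at the edge of detection in most groups: its tested probe was detected on 17 arrays, and the other, ILMN_1702371, on 0. It read 132 and 114 for miR-127-5p, 29.6 and 39.1 for miR-135a, 29.6 and 34.9 for miR-369-3p, 21.4 and 23.2 for miR-410, 21.3 and 21.4 for miR-544a, and 40.4 and 34.1 for miR-655-3p, against 33.6 and 27.3 in the NT control. BMPER was 4.05-fold higher with miR-127-5p (log2 fold change 2.02, standard error 0.16, adjusted p = 2.05e-07), and 1.98 higher on the log2 scale than in the inhibitor groups. The BMPER fold over the NT control moved with the background handling: it was 1.67 without background correction, 2.43 with an offset of 50 and 7.66 in the authors' table, and was called in each. With miR-544a BMPER was below detection on both arrays and at least 1.11-fold lower, a bound set against the level at the detection threshold. The call itself came from the fitted log2 fold change of -0.50 (limma, adjusted p = 0.0282). It was lost without background correction, with median scaling, with an offset of 50, with SAM and in the fit of only the 2 groups. In the authors' table it was kept, at 11.6-fold lower. That BMPER call was lost without NT control replicate 1 (-0.35, adjusted p = 0.242) or either miR-544a mimic array (adjusted p 0.0717 and 0.0992). The BMPER inhibitor arrays ran from 21.7 to 42.4 and none was called. Over the 12 group means NOG and BMPER correlated at 0.945, and the miR-127-5p group was the highest of both.

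BMP4, a BMP ligand, was the least repeatable of the genes. Its arrays read 348 and 218 for miR-127-5p, 268 and 283 for miR-135a, 367 and 322 for miR-369-3p, 548 and 302 for miR-410, 245 and 35.5 for miR-544a, and 313 and 139 for miR-655-3p, against 422 and 396 in the NT control. The SD of log2 values within groups was 0.73, against 0.08 for the bright ID1 probe. BMP4 was called lower with miR-544a (log2 fold change -2.13, standard error 0.64, adjusted p = 0.0210), and without miR-544a mimic replicate 2 the difference was -0.74 (adjusted p = 0.388). The call was also lost without NT control replicate 1 (adjusted p = 0.0963) or 2 (adjusted p = 0.0808). BMP4 was not called with any other mimic or inhibitor in this model, and its inhibitor arrays ran from 131 to 512. An implementation of SAM, the method of the study, was run on the values normalized here, where 2 against 2 arrays allow few permutations. It called BMP4 lower also with the miR-127-5p (log2 fold change -0.57), miR-135a (-0.57) and miR-655-3p (-0.97) mimics and with the miR-135a (-0.95) and miR-369-3p (-1.22) inhibitors. Fits of only the 2 groups compared called BMP4 lower with the miR-135a mimic and inhibitor and not with the miR-544a mimic (adjusted p = 0.186). With the 95% interval of the BMP4 difference for miR-410 running from -1.36 to 1.35 on the log2 scale, a 2-fold change was not detectable.

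**Figure D4:**
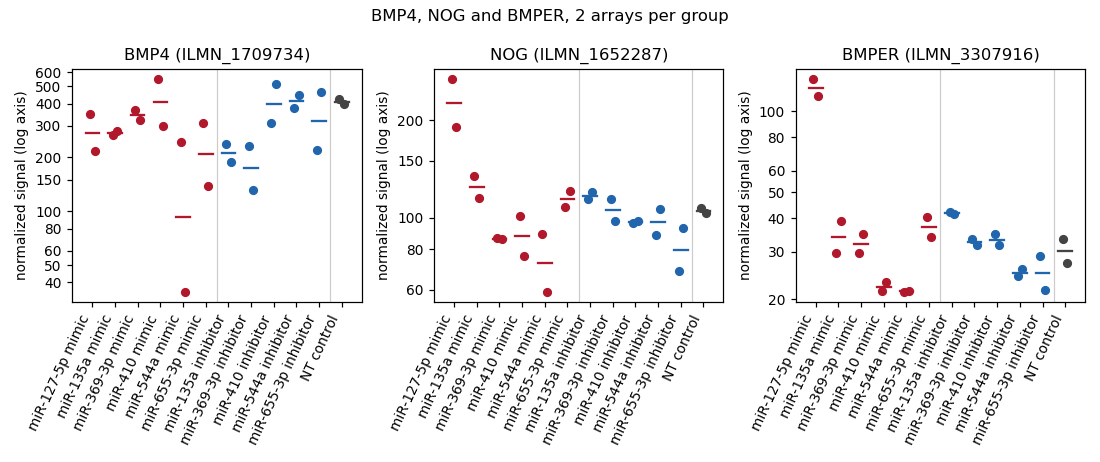
Normalized signal (log axis) of BMP4, NOG and BMPER on each array, with mimics in red, inhibitors in blue and the NT control in grey, 2 arrays per group as points and the mean of log2 values as a bar. The miR-127-5p mimic arrays are highest for NOG (268 and 190.3) and BMPER (132 and 114), and the BMP4 arrays of the miR-544a mimic differ from each other (245 and 35.5).

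The mimics differed from each other and from the inhibitors in which of these genes were called. Set against the inhibitor groups, 27 of 60 probe comparisons were called: 7 for miR-127-5p (18.1% of all tested probes were called in this comparison), 5 for miR-135a (13.7%), 1 for miR-369-3p (3.43%), 5 for miR-410 (5.57%), 7 for miR-544a (20.5%) and 2 for miR-655-3p (11.9%). Set against the other 5 mimics, 26 of 60 were called: 6 for miR-127-5p (16.8%), 2 for miR-135a (12.7%), 4 for miR-369-3p (3.28%), 5 for miR-410 (5.50%), 6 for miR-544a (23.1%) and 3 for miR-655-3p (9.42%). The 2 of 10 probes with miR-135a against the other mimics, and the 2 of 10 with miR-655-3p against the inhibitors, were near the background. Of the 27 calls 8 were lost without at least 1 single array, and of the 26 calls 4. The dim ID1 probe gave 4 of the 27, with miR-127-5p (-0.50), miR-135a (-0.49), miR-544a (-0.52) and miR-369-3p (0.65). Each of these 4 was lost without at least 1 single array. BMP4 with miR-544a was at -1.62 against the inhibitors, and at -0.23 without miR-544a mimic replicate 2. The miR-127-5p mimic combined lower ID1 and ID3 with higher NOG and BMPER and no called difference of BMPR2 from the NT control, miR-410 and miR-544a had the lowest BMPR2, and miR-655-3p had the lowest SMAD5 and SMAD6. The miR-369-3p mimic had the highest ID1 and ID3 of the mimics. Against the mean of the other mimics, its ID3 was 3.10-fold higher (log2 fold change 1.63, adjusted p = 9.16e-08) and its bright ID1 probe 1.85-fold higher (0.89, adjusted p = 1.68e-05). These p-values measure the spread between arrays of a group, not the differences among the other 5 mimic groups. Against the NT control ID3 with miR-369-3p was not higher (-0.31, not called). Against the other mimics ID3 was also called higher with miR-655-3p (1.09) and miR-410 (0.57), and lower with miR-127-5p (-1.28) and miR-135a (-1.65). The miR-410 call was lost with median scaling (0.30), without background correction (0.26) and with an offset of 50 (0.42). Both miR-655-3p (-0.76) and miR-410 (-1.20) had ID3 called lower than the NT control.

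**Figure D5:**
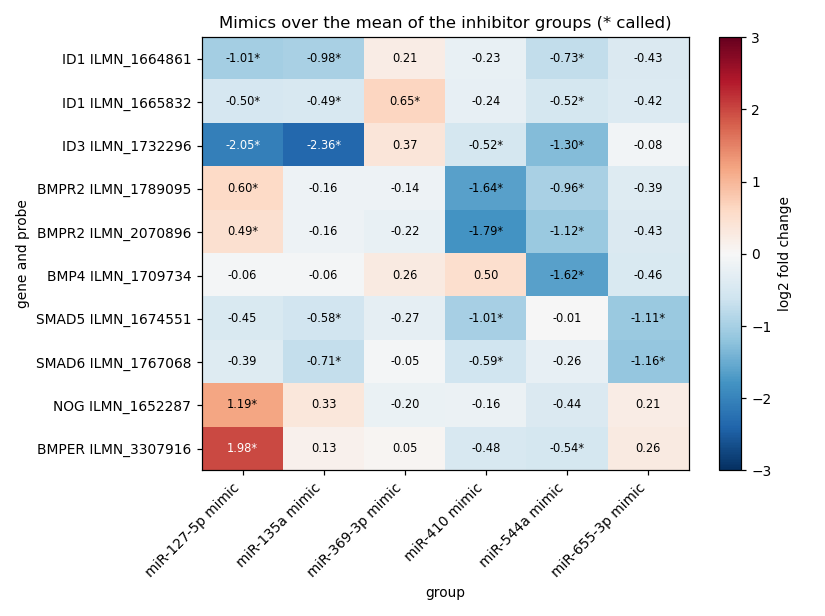
Log2 fold change of each mimic over the mean of the 5 inhibitor groups for the 10 tested probes, with blue lower and red higher than the inhibitors and an asterisk on called probes. With miR-369-3p 1 probe is called (ID1 ILMN_1665832, 0.65), and with miR-410 both BMPR2 probes are the lowest of its column (-1.64 and -1.79).

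Other genes of the pathway were counted from fixed lists with 39 tested probes of 30 genes. Against the NT control the miR-127-5p mimic had 7 of the 39 lower and 3 higher, miR-135a 5 and 3, miR-369-3p 4 and 0, miR-410 5 and 1, miR-544a 8 and 1 and miR-655-3p 5 and 0. The lower and higher probes were 17.9% and 7.69% of the 39 for miR-127-5p, against 8.02% and 7.75% of all tested probes. The shares were 12.8% and 7.69% for miR-135a (8.27% and 8.14% of all), 10.3% and 0% for miR-369-3p (2.76% and 2.31%), 12.8% and 2.56% for miR-410 (4.10% and 3.46%), 20.5% and 2.56% for miR-544a (9.80% and 11.2%) and 12.8% and 0% for miR-655-3p (5.90% and 5.51%). The shares called higher were near or below the background for all 6 mimics. The median log2 fold changes of the 39 probes lay between -0.21 (miR-544a) and -0.07 (miR-127-5p). Among inhibitors, miR-135a had 8 lower and 2 higher, miR-369-3p 8 and 1, miR-410 6 and 0, miR-544a 5 and 0 and miR-655-3p 2 and 0. In either direction these were 25.6%, 23.1%, 15.4%, 12.8% and 5.13% of the 39 probes, where 11.6%, 12.3%, 9.31%, 3.77% and 3.22% of all tested probes were called.

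Among 12 tested probes of other BMP antagonists, the miR-127-5p and miR-135a mimics each had 2 lower and 2 higher, and the other 4 mimics had 3 to 5 lower and 0 higher. SOST, which encodes the secreted antagonist sclerostin, was called lower with all 6 mimics (log2 fold changes -0.96 for miR-127-5p, -1.41 for miR-135a, -1.01 for miR-369-3p and -1.64 for miR-655-3p, and at least 2.88-fold for miR-410 and at least 2.93-fold for miR-544a, where it was undetected). FST, which encodes the activin and BMP antagonist follistatin, was 1.14 higher on the log2 scale with miR-127-5p on its brighter probe and lower with miR-544a (-0.98), miR-410 (-0.82), miR-655-3p (-0.63) and miR-369-3p (-0.54). FST was lower than the NT control with all 5 inhibitors as well (-1.64 to -0.79). FSTL3, a follistatin-like antagonist, was higher with miR-127-5p (1.30) and miR-135a (0.68), and CRIM1, a membrane BMP antagonist, was lower with miR-544a (-1.38). The brighter FST probe and FSTL3 made up the 2 probes called higher with miR-127-5p, so no other FST probe was called higher there. The gene of the chordin-like antagonist CHRDL2 was above detection with miR-135a and not in the NT control, at least 1.16-fold higher.

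Of 6 probes of other BMP target genes, ATOH8, a transcription factor gene, was called lower with miR-369-3p (-1.0) and miR-135a (-1.31), and was undetected and at least 2.51-fold lower with miR-127-5p, at least 2.59-fold with miR-655-3p and at least 2.53-fold with miR-544a. RUNX2, the osteoblast factor, was lower with miR-135a (-0.73), and the transcription factor gene HEY1 was undetected and at least 1.21-fold lower with miR-655-3p. Of 7 receptor and co-receptor probes, RGMB, a BMP co-receptor, was lower with miR-410 (-1.41) and higher with miR-127-5p (0.71) and miR-544a (0.76), and the type I receptor gene ACVR1 was lower with miR-544a (-0.49). Of 7 SMAD and SMAD ligase probes, the inhibitory SMAD7 was lower with miR-410 (-1.01) and, undetected, at least 1.70-fold lower with miR-135a, and the ligase gene SMURF2 was lower with miR-127-5p (-0.53). Of 4 ligand probes, BMP5 was higher with miR-410 (at least 1.61-fold) and miR-135a (at least 1.13-fold), GDF5 was at least 1.26-fold lower with miR-127-5p and BMP8B at least 1.25-fold lower with miR-544a, all near the detection limit. Of 3 E protein probes, both of TCF12, an E protein gene, were lower with miR-127-5p (-0.77 and -0.50) and also with the miR-369-3p inhibitor (-0.50 and -0.49). Inhibitors were called for other genes of these lists too: SOST was lower with the miR-135a (-1.37), miR-410 (-0.68) and miR-544a (-0.59) inhibitors, ATOH8 with the miR-135a inhibitor (-1.22), CRIM1 with the miR-369-3p inhibitor (-1.37), and RGMB with all inhibitors but that of miR-655-3p (-0.75 to -0.56). FSTL3 was higher with the miR-369-3p (0.91) and miR-135a (0.62) inhibitors, and RUNX2 with the miR-135a inhibitor (0.50). Several calls from these lists, such as ACVR1 with miR-544a (-0.49), lie near the 1.4-fold threshold. None of the list calls was followed through the alternatives of the closing section, so how far they hold is not known.

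Arrays of a group correlated at 0.980 to 0.997 over all tested probes, and 19754 to 21286 probes per array were detected. The mesenchymal and basal markers VIM, CD44, CAV1, AXL and LGALS1 were detected on 24 arrays at levels of 3976 to 18131. ESR1 and CDH1 were detected on 0 arrays and PGR on 1, while GATA3 was detected on all 24 at a low level (36.8 to 78.8). KRT19 (2315 to 4575) was detected on all 24, against the expectation that it is low or absent in this line. Of the markers of other cell types PTPRC was at 0 arrays, PECAM1 at 16, COL1A2 at 21 and DCN at 8, with levels of 19.3 to 50.3, and their part in the results was not tested.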

How the data were processed

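MDA-MB-231 cells were profiled on 24 HT12v4 arrays in 12 labelled groups of 2. The authors deposited bead signal intensity per probe before background subtraction, with a detection p-value per probe and array in the same deposited table. A second table, of log2 values that the authors had background-subtracted and quantile normalized with BeadStudio, served as an alternative. Intensities were background-corrected from the detection p-values with an offset of 16, quantile normalized and brought to log2 (limma 3.58.1's neqc, R 4.3.3). limma fitted 1 model of 12 group means with 12 residual and 3.96 prior degrees of freedom, and p-values were adjusted over 22803 probes. The rule for named genes was each tested member probe, and from the pathway lists at most 3 called genes per list and mimic. The members and lists were chosen with earlier results of these data known. A group undetected on both arrays is given as a bound. The procedure was run on simulated data with independent noise on each array and changes added to a set of probes in the miR-655-3p mimic group. That simulation held no effects shared by arrays, so it checks the code and not the calls given here. Figures were drawn with matplotlib under Python. Precision is limited by the number of arrays, 2 in each group. The closing section gives the alternatives.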

Additional observations from a re-analysis of the deposited data

How the results depend on the processing

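The alternatives were no background correction, plain subtraction, median scaling, the authors' table, an offset of 50, no filter on detection, a detection p under 0.01, a trend in the empirical Bayes step, a replicate block, each array left out, and for the NT comparisons SAM and fits of only the 2 groups compared. None of the 101 called differences changed sign. Of the 48 calls against the NT control 30 held in all 35 settings and 13 were lost without at least 1 single array. Without background correction 17 differences from the inhibitors were called in place of 27, 16 from the other mimics in place of 26, and 2 with miR-369-3p in place of 5. Of the 101 calls 29 were lost and 22 moved by over 1.5 times without background correction, 14 and 3 with an offset of 50, 5 and 11 in the authors' table and 16 and 0 with median scaling. Median scaling left 33 calls below the NT control in place of 45. SAM added 6 calls against the NT control and fits of only the 2 groups 3, most of them of BMP4. With median scaling 0 were called with miR-369-3p, and the median of all probes shifted by -0.19 with the miR-135a and miR-410 mimics. With miR-544a 5 were called in the fit of only the 2 groups and 4 with SAM, in place of 8. The cause was not tested.

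With each array left out in turn, the calls below the NT control numbered 35 to 45 and those above it 2 to 3, those from the inhibitors 24 to 28, and those from the other mimics 24 to 28. Per mimic they numbered 6 to 6 for miR-127-5p, 6 to 6 for miR-135a, 1 to 5 for miR-369-3p (1 without NT control replicate 1), 5 to 5 for miR-410, 5 to 8 for miR-544a and 5 to 6 for miR-655-3p. Deviations of same-numbered arrays correlated at -0.48 to 0.52 (median 0.04) over 66 pairs of groups, above 0.1 in 27, so the replicate numbers were not taken to pair the arrays. With a replicate block 44 calls lay below the NT control, 3 above it, 27 differed from the inhibitors and 26 from the other mimics.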
